A study of Mus musculus with 10 samples.

Results

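This account covers 37 genes of lysosomal degradation and autophagy, chosen by name as a functional module and found, all 37, among the 35087 gene symbols listed for each library. Transcripts were measured in granulosa cells taken by laser microdissection from ovaries of wild-type C57B6/J female mice aged 3 weeks, and polyadenylated RNA was amplified by the GEO-seq protocol for small captured areas. The NAC group, named for N-acetyl-L-cysteine, a thiol that serves cells as a cysteine source, had 150 mg/kg injected into the peritoneum on 3 consecutive days and holds 4 libraries. The group given saline on the same days holds 6 libraries, and ovaries of both groups were taken on day 4 after the first injection. The labels do not say whether libraries come from separate animals, so the spread behind each p-value is that among captures and may be technical.

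Lysosomes are acidic compartments in which peptidases, glycosidases and lipases break down material delivered by endocytosis and autophagy. In autophagy a membrane grows around cytoplasm under the control of the ULK1 and BECN1 complexes, ATG8-family proteins are coupled to its lipids by ATG3, ATG7 and the ATG12, ATG5 and ATG16L1 complex, and cargo receptors such as p62 tie ubiquitinated cargo to it before it fuses with a lysosome. TFEB is a transcription factor that drives many of these genes when it enters the nucleus, through an E-box sequence known as the CLEAR element. In the ovary, autophagy and lysosomal peptidases are studied in granulosa cells because follicles are lost by atresia, and cathepsin L is known in rodents as a gonadotropin-regulated granulosa cell peptidase.

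The NAC libraries held 116461 to 1667181 estimated reads while saline libraries had 1340324 to 2488408. Both NAC 2 (84.8%) and NAC 3 (85.1%) had reads for a smaller share of tested genes than the remaining 8 libraries (97.7% to 99.5%). The genes of the module took 6073, 2945, 604 and 10062 reads in NAC 1 to NAC 4 and 7496 to 25408 reads in the saline libraries. Of 10 granulosa markers, 9 had reads in all NAC libraries and 10 in all saline libraries. Their summed level was 3766 to 9996 CPM (reads scaled to a common library total) in NAC and 9552 to 36628 CPM in saline. Most of that sum was Inha, with 2586 to 8216 CPM in NAC and 7606 to 32857 CPM in saline. Macrophages are rich in lysosomes, and the 14 macrophage markers summed to 184 CPM in NAC 2, 0 to 22.4 CPM in the other NAC libraries and 0.901 to 41.5 CPM in saline. None of these 14 had reads in every library of either group, and Mpeg1 was at 0 in all NAC libraries and C1qc at 0 in all saline libraries. In such captures, fewer cells of a type and less RNA per cell cannot be told apart.

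No single gene of the module passed the test between NAC and saline. All 37 members passed the filter on low counts, and edgeR's quasi-likelihood test called 0 of them for NAC over saline at an adjusted p under 0.05, where 0.0731% of the 10945 genes tested were called (0.0548% lower in NAC). Other tools called more genes, members and others alike: DESeq2 called 3 of the 36 members to which it gave an adjusted p (8.33%), against 4.21% of 10293 genes, and limma-voom called 2 of 37 (5.41%), against 4.08% of 10945 genes. A p that misses the threshold does not show that a gene was equal in both groups. At an unadjusted p under 0.05 there were 5 members (13.5%), 4 lower and 1 higher in NAC, against 16.2% of all genes tested (8.34% lower and 7.82% higher), so the share of members was close to the background. In CPM the groups did not overlap for 3 members (8.11%), Naglu, Map1lc3b and Sqstm1, all lower in NAC, against 5.38% of all genes tested (3.43% lower and 1.96% higher in NAC). In the deposited TPM, which are scaled for transcript length, Map1lc3b and Sqstm1 did overlap. The median log2 fold of the members, NAC over saline, was -0.33, with 22 negative and 15 positive, against a median of 0.02 and 49.0% negative over all genes tested. The smallest edgeR adjusted p among the members was 0.0811, for Ctsl.

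**Figure D1:**
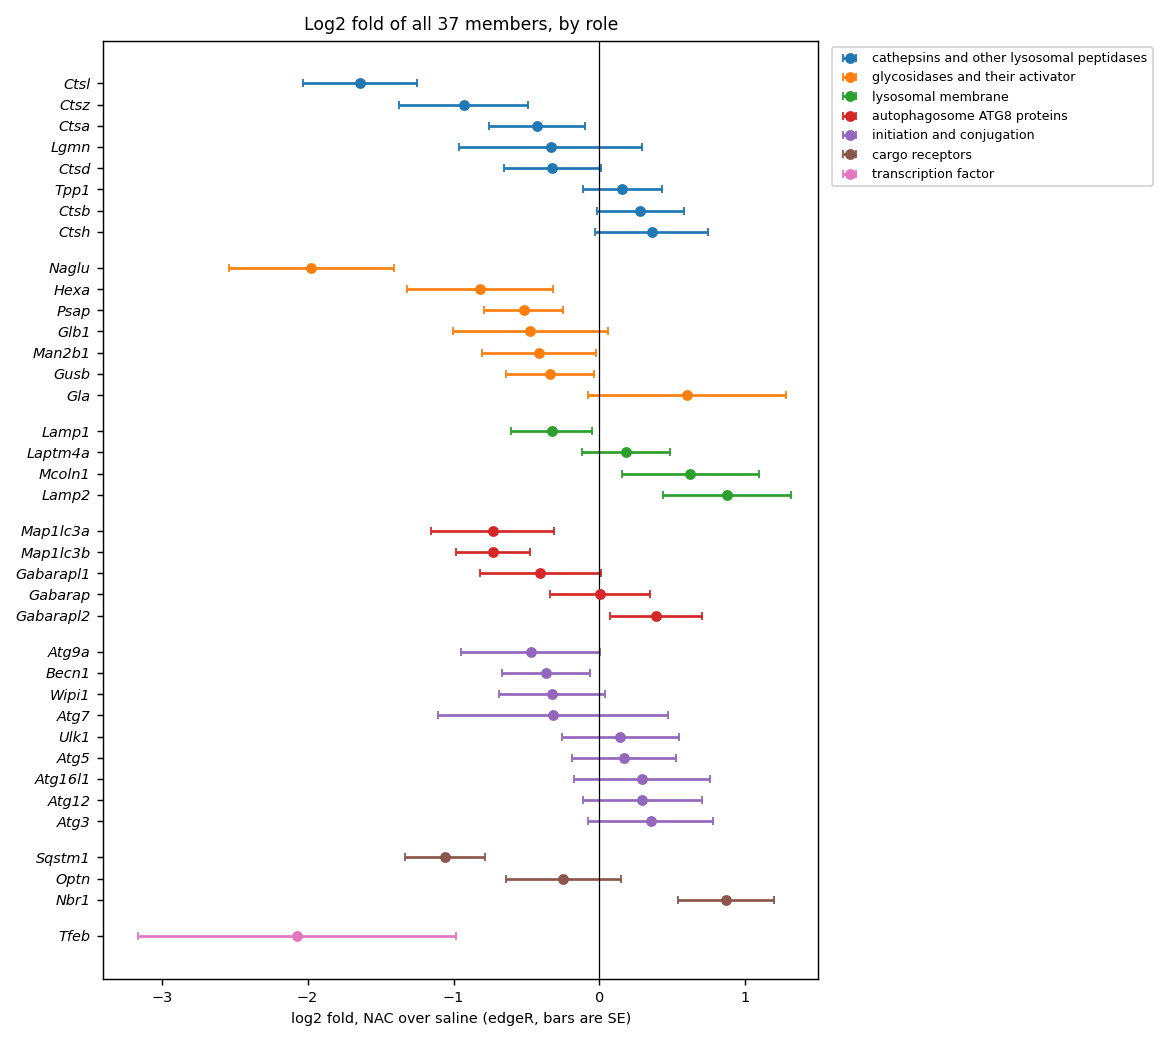
Log2 fold of NAC over saline for each of the 37 members, grouped by role from top to bottom; points are edgeR estimates and bars their standard errors. The values run from -2.07 for Tfeb to 0.87 for Lamp2, with 6 of 7 glycosidase genes below 0 and the other roles of several genes divided.

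The start regions of some members carry the sequence that TFEB is known to bind, and they are shown because the members share a regulator in textbook accounts, not because they changed together. RefSeq (GRCm38.p6) promoters, from 250 bases before to 50 after the start, were matched by symbol for 31 of the 37 members. Both strands were searched for CACGTG, the E-box at the heart of the CLEAR element, and for TCACGTGA, its longer form, in which the E-box is contained. CACGTG stood in a listed promoter of 12 of the 31 members (38.7%), against 8.09% of all 27025 symbols with a promoter (7.15% of promoters). TCACGTGA stood in 5 of 31 (16.1%), namely Ctsa, Ctsd, Gla, Mcoln1 and Atg3, against 1.12% of all symbols (0.974% of promoters). GTAAACA, a sequence that FOXO factors bind, stood in 0 of the 31, against 4.05% of all symbols (3.65% of promoters), which says only that these letters are not in these windows. The background of all symbols includes genes too low to be tested here, whereas every member was tested. A share over the tested genes alone was not taken. Lamp1 carried CACGTG at -61, -45, -28 and -15 from its start, all within chr8:13159075-13159154 (plus strand), where GENCODE lists no gene. The other stretches are 28 bases each around 1 match: Mcoln1 at chr8:3500463-3500490 (plus strand), Ctsd at chr7:142387909-142387936 (minus strand), Gla at chrX:134601216-134601243 (minus strand), Atg3 at chr16:45158747-45158774 (plus strand), Ctsl at chr13:64370740-64370767 (minus strand) and Naglu at chr11:101070010-101070037 (plus strand). Those of Mcoln1, Ctsd, Ctsl and Naglu overlap an exon that GENCODE lists for the same gene, and that of Gla overlaps an exon of its neighbour Hnrnph2. Capitals mark the match, in the longer form where it is present.
Lamp1: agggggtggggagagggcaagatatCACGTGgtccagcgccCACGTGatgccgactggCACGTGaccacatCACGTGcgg
Mcoln1: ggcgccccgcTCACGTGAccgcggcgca
Ctsd: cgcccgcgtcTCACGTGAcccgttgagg
Gla: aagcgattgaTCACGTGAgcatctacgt
Atg3: gagagtcgagTCACGTGAggccttaggt
Ctsl: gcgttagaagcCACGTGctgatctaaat
Naglu: aaccttcaggtCACGTGgcccgaggtcg

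The members with CACGTG did not stand apart in their values. Their 12 log2 folds had a median of -0.32 with 8 negative, and those of the 19 members with a listed promoter but without it had a median of -0.34 with 12 negative. The 5 members with TCACGTGA had a median of 0.35, from -0.43 for Ctsa to 0.62 for Mcoln1.

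Tfeb itself (chromosome 17, 47737030 to 47792419) was at the low end of what the libraries could measure. It had 8, 0, 0 and 0 reads in NAC 1 to NAC 4, or 5.77, 0, 0 and 0 CPM, and 103 reads over the saline libraries, with 2.22, 6.19 and 15.5 CPM as the lowest, median and highest. A count of 0 allows up to 3 reads, which is 6.14 CPM in NAC 2, 24.2 CPM in NAC 3 and 1.61 CPM in NAC 4. Only the limit of NAC 4 lay below every saline value. The lowest saline value, in saline 6, was itself 5 reads, so the place of NAC 4 below it is uncertain. These limits cover counting error only. The log2 fold was -2.07 (SE 1.09 and adjusted p by edgeR = 0.357). Without NAC 1, the 1 NAC library with reads, it was -6.80, a value that rests on 0 reads in that group and is no measure of size.

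The peptidases of the lysosome were dominated by cathepsin L. Ctsl (chromosome 13, 64359337 to 64370890), which encodes a broad cysteine endopeptidase, had 1433, 2074, 1337 and 1739.6 CPM in NAC 1 to NAC 4, against 1839.6, 2606, 6476, 7249.9, 6015 and 6649.8 CPM in saline 1 to saline 6. Saline 1 and saline 2 lay beside the NAC libraries and the other 4 saline libraries far above them, and the groups overlapped, since NAC 2 was above saline 1. The mean was 1646 ± 333 CPM in NAC (SD, n = 4) and 5139 ± 2306 CPM in saline (SD, n = 6), and the log2 fold was -1.64 (SE 0.39 and adjusted p by edgeR = 0.0811). It passed without saline 1 (edgeR adjusted p = 0.0449), a fit that called 0.202% of all genes tested, with adjusted p from 0.0449 to 0.184 over the libraries left out. The summed granulosa markers of the same libraries were 8428, 3766, 9996 and 9847 CPM in NAC 1 to NAC 4, against 9552, 12487, 32264, 36034, 36628 and 32089 CPM in saline 1 to saline 6. The 2 saline libraries low in Ctsl were thus the 2 low in this sum, most of which was Inha. Among the other markers, Hsd17b1 did not overlap between the groups (131 to 483 CPM in NAC, 674 to 1644 CPM in saline). The rest overlapped, Foxl2 among them (84.0 to 189 CPM in NAC, 117 to 208 CPM in saline). The part of granulosa cell RNA in the Ctsl difference was not tested. Ctsl made up 27.5% to 34.4% of the CPM of the whole module in NAC and 35.4% to 61.5% in saline. The summed CPM of the other 36 members was 2948 to 3956 in NAC and 3350 to 4976 in saline, so the sums overlapped without it. Of the 31-base words in the transcripts of Ctsl, 7.68% also occur in other genes, most often in the gene model Gm49230, which overlaps it on the same strand.

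**Figure D2:**
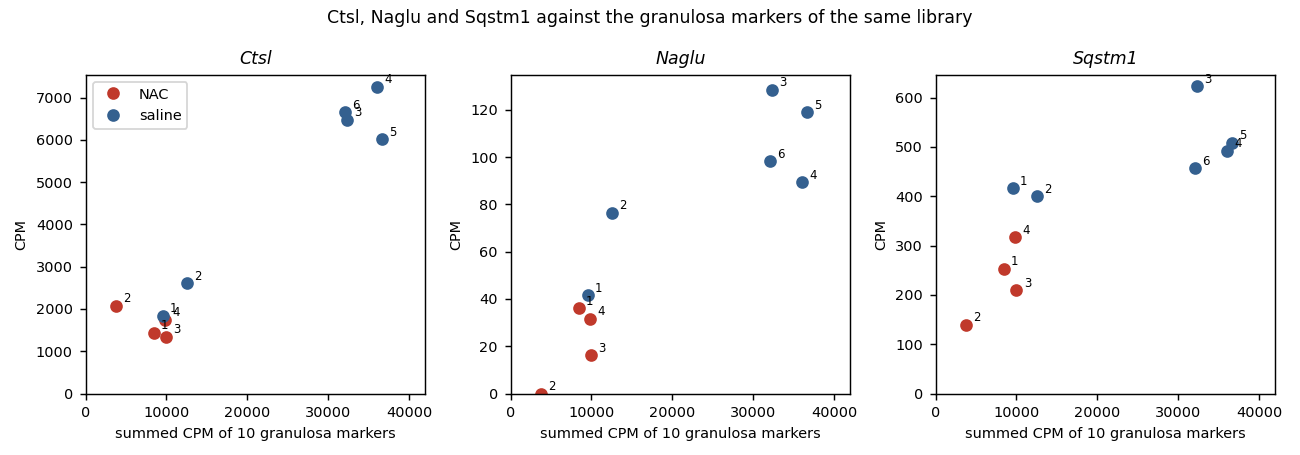
CPM of Ctsl, Naglu and Sqstm1 in each library against the summed CPM of 10 granulosa markers in the same library; red points are NAC, blue points saline, and numbers are replicates. The NAC libraries lie at 3766 to 9996 marker CPM with saline 1 and saline 2 at 9552 and 12487. The other 4 saline libraries lie at 32089 to 36628. Most of the marker CPM is Inha.

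The other 7 peptidase genes had log2 folds between -0.93 and 0.36. Ctsz (chromosome 2, 174427493 to 174439039), a carboxypeptidase known as cathepsin Z or X, had 129, 20.5, 48.3 and 191 CPM in NAC 1 to NAC 4, against a lowest of 113, a median of 203 and a highest of 248 CPM in saline. NAC 2 and NAC 3 were low and NAC 1 and NAC 4 within the saline range. Its log2 fold was -0.93 (SE 0.44, unadjusted p = 0.0501, edgeR adjusted p = 0.309), and -1.55 without NAC 4. Ctsa, the protective protein of the galactosidase and neuraminidase complex, had a log2 fold of -0.43, Ctsd, the main aspartic peptidase, of -0.32, and Lgmn, an asparagine-specific endopeptidase that processes other cathepsins, of -0.33. Ctsb, a cysteine peptidase, had a log2 fold of 0.28, Ctsh, an aminopeptidase, of 0.36, and Tpp1, a tripeptidyl peptidase, of 0.16. Ctsd shares 33.2% of its 31-base words with other genes, most often with the overlapping model Gm49369, so its level is uncertain.

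Among glycosidases and their activator, 6 of 7 values lay below 0, none passed, and the median was -0.47 on the log2 scale. Naglu (chromosome 11, 101070012 to 101077672), which encodes the glucosaminidase that trims heparan sulfate, had 36.1, 0, 16.1 and 31.7 CPM in NAC 1 to NAC 4, against 41.5, 76.3, 128, 89.3, 119 and 98.2 CPM in saline 1 to saline 6. Every NAC library was below every saline library, with saline 1 next to them. The 0 of NAC 2 allows up to 6.14 CPM. The 16.1 CPM of NAC 3 was 2 reads, where 3 reads make 24.2 CPM, so its place below saline 1 is uncertain. The mean was 21.0 ± 16.4 CPM in NAC (SD, n = 4) and 92.1 ± 31.3 CPM in saline (SD, n = 6), and the log2 fold was -1.97 (SE 0.56 and adjusted p by edgeR = 0.116). Psap (chromosome 10, 60277627 to 60302597), the precursor of the saposins that present lipids to these enzymes, had 144, 121, 169 and 248 CPM in NAC 1 to NAC 4, against a lowest of 186, a median of 236 and a highest of 299.8 CPM in saline. NAC 4 lay within the saline range and the other NAC libraries below it (log2 fold -0.52 with SE 0.27 and edgeR adjusted p = 0.354).

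The remaining glycosidase genes had values on both sides of 0. Hexa, the alpha subunit of hexosaminidase A, had a log2 fold of -0.82, Glb1, the acid beta-galactosidase, of -0.47, Man2b1, the lysosomal alpha-mannosidase, of -0.41, and Gusb, the beta-glucuronidase, of -0.34. Gla, the alpha-galactosidase that clears globosides, had a log2 fold of 0.60, from 44 NAC reads and 144 saline reads in all, and this value was -0.35 without NAC 2.

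The lysosomal membrane genes had 3 positive values of 4. Lamp1 (chromosome 8, 13159161 to 13175338), a glycoprotein that lines the membrane, had 141, 238, 209 and 195 CPM in NAC 1 to NAC 4, against a lowest of 161, a median of 251.3 and a highest of 316 CPM in saline, and the groups overlapped (log2 fold -0.33 with SE 0.28 and edgeR adjusted p = 0.579). Lamp2 (chromosome X, 38401357 to 38456454), whose A form is the receptor of chaperone-mediated autophagy, had 28.9, 199, 64.4 and 52.6 CPM in NAC 1 to NAC 4, against a lowest of 32.8, a median of 49.1 and a highest of 56.5 CPM in saline. NAC 2 was far above all other libraries. The log2 fold was 0.87 (SE 0.44 and adjusted p by edgeR = 0.337), and -0.05 without NAC 2, which is also the library with the most macrophage, smooth muscle (573 CPM, against 7.21 to 315 in the rest), stroma and endothelial marker CPM; their part in the value was not tested. Mcoln1 (chromosome 8, 3500457 to 3515232), the calcium channel that activates calcineurin towards TFEB, had 68.5, 18.4, 24.2 and 31.2 CPM in NAC 1 to NAC 4, against a lowest of 10.2, a median of 22.1 and a highest of 40.5 CPM in saline. Its log2 fold of 0.62 rested on NAC 1 and was -0.01 without it. Laptm4a, a membrane protein of late endosomes, had a log2 fold of 0.18.

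**Figure D3:**
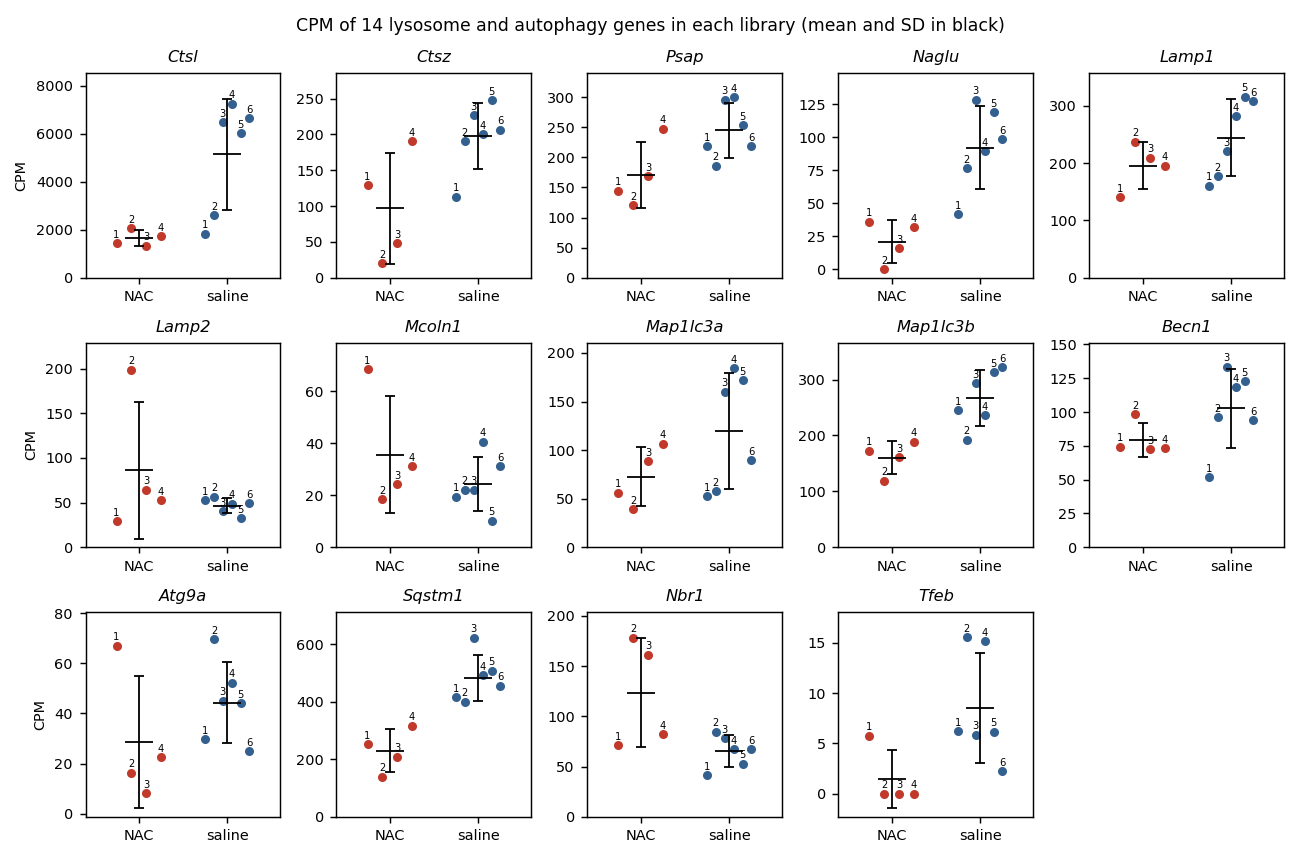
CPM of the 14 members described by library, NAC left and saline right in each panel, with replicate numbers at the points and the mean and SD in black. The groups do not overlap for Naglu, Map1lc3b and Sqstm1, and a single NAC library sets the upper end for Lamp2 (NAC 2) and Mcoln1 (NAC 1).

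The ATG8 genes, which encode the ubiquitin-like proteins that coat autophagosomes, differed among themselves. Map1lc3b (chromosome 8, 121590361 to 121598760), which encodes LC3B, had 172, 119, 161 and 189 CPM in NAC 1 to NAC 4, against 245, 193, 293, 236, 313 and 322 CPM in saline 1 to saline 6. The groups did not overlap in CPM, with NAC 4 and saline 2 nearly touching. In the deposited TPM they overlapped, at 105 to 154 TPM in NAC and 111 to 199 TPM in saline. The mean was 160.3 ± 30.0 CPM in NAC (SD, n = 4) and 267 ± 50.7 CPM in saline (SD, n = 6), and the log2 fold was -0.73 (SE 0.26, unadjusted p = 0.0114, edgeR adjusted p = 0.189). Map1lc3a (chromosome 2, 155276297 to 155278073), which encodes LC3A, had 56.3, 38.9, 88.6 and 106 CPM in NAC 1 to NAC 4, against 52.6, 57.5, 160.0, 184, 172 and 89.4 CPM in saline 1 to saline 6. Saline 1 and saline 2 were again the lowest of their group (log2 fold -0.73 with SE 0.42 and edgeR adjusted p = 0.404). In the GABARAP branch, Gabarapl1 had a log2 fold of -0.41, Gabarap of 0.01 and Gabarapl2 of 0.39; Gabarap was 338 CPM in NAC 2 and 75.7 to 185 CPM in the other NAC libraries. Whether the LC3 and GABARAP branches differ was not tested. Of the 31-base words of Gabarapl2, 15.2% also occur in other genes, most often Gm3724, and of those of Map1lc3b 7.77%, most often Gm6055, so reads could be split between them.

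The initiation and conjugation genes lay close to 0, with log2 folds from -0.47 to 0.35, 4 of 9 negative, and none at an unadjusted p under 0.05. Becn1 (chromosome 11, 101285952 to 101302286), a subunit of the lipid kinase complex that starts the autophagosome, had 74.3, 98.3, 72.5 and 73.0 CPM in NAC 1 to NAC 4, against a lowest of 51.9, a median of 107 and a highest of 133 CPM in saline (log2 fold -0.37 with SE 0.30 and edgeR adjusted p = 0.564). Atg9a (chromosome 1, 75180860 to 75192196), a lipid scramblase whose vesicles seed the membrane, had 67.1, 16.4, 8.05 and 22.6 CPM in NAC 1 to NAC 4, against a lowest of 24.9, a median of 44.6 and a highest of 69.7 CPM in saline. Its log2 fold was -0.47 (SE 0.48 and adjusted p by edgeR = 0.641), and -1.36 without NAC 1; 32.0% of its 31-base words occur in other genes, most often in the overlapping model Gm29253. Ulk1, the initiating kinase, had a log2 fold of 0.14 and Wipi1, which reads the lipid made by the kinase complex, of -0.33. Of the conjugation enzymes and their partners, Atg3 had a log2 fold of 0.35, Atg12 of 0.29, Atg16l1 of 0.29, Atg5 of 0.17 and Atg7 of -0.32. Atg7 had 71 NAC reads in all, and its value was -1.43 without NAC 1.

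The cargo receptors pointed both ways. Sqstm1 (chromosome 11, 50199366 to 50210827), which encodes p62, had 253, 139, 209 and 317 CPM in NAC 1 to NAC 4, against 416, 399.8, 622, 492, 508 and 457 CPM in saline 1 to saline 6. In CPM every NAC library was below every saline library, including saline 1 and saline 2. In the deposited TPM the groups overlapped, at 148 to 298 TPM in NAC and 255 to 348 TPM in saline. The mean was 229.7 ± 74.7 CPM in NAC (SD, n = 4) and 483 ± 80.3 CPM in saline (SD, n = 6), and the log2 fold was -1.06 (SE 0.27, unadjusted p = 0.00133, edgeR adjusted p = 0.0970). Nbr1 (chromosome 11, 101552149 to 101581951), a receptor of similar build, had 71.4, 178, 161 and 82.2 CPM in NAC 1 to NAC 4, against a lowest of 41.5, a median of 67.3 and a highest of 84.8 CPM in saline. NAC 2 and NAC 3 were above all saline libraries and NAC 1 and NAC 4 within their range, and the log2 fold was 0.87 (SE 0.33, unadjusted p = 0.0175, edgeR adjusted p = 0.221). Optn, a receptor for damaged mitochondria and bacteria, had a log2 fold of -0.25. Sqstm1 overlaps an exon of Mrnip on the other strand, one of 12 members with such a neighbour, and how the counting used strand is not given in the sources used here.

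Per length, the same 4 members headed the module in both groups. On the deposited TPM scale, Ctsl was the highest member, with a median level of 1124 TPM in NAC (741 to 1470) and 4195 TPM in saline (1409 to 4833), above the highest value of any other member in any library (348 TPM). Laptm4a, Gabarap and Sqstm1 followed with medians of 261, 212 and 200 TPM in NAC. In saline the next were Sqstm1, Laptm4a and Gabarap with medians of 294, 214 and 172 TPM. The ranges of these neighbours overlapped in NAC. The lowest levels were those of Tfeb, with a median of 0 TPM in NAC and 4.77 TPM in saline, and of Gla in saline (5.47 TPM).

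A trend with base composition ran through the comparison and through the module. With the 10851 tested genes that have a GC value in 4 bins of nearly equal size by the GC content of the longest transcript, the median log2 fold was 0.44 in the lowest bin, 0.15 in the second, -0.18 in the third and -0.41 in the highest. The members followed it: of 5 members in the lowest bin and 8 in the second, 1 each was negative (Ctsl and Becn1), while 11 of 14 in the third and 9 of 10 in the highest were negative. The median GC content of the members was 51.5%, against 49.4% for the tested genes. Weighted by reads, the GC content of the libraries was 49.9%, 46.9%, 48.0% and 49.5% in NAC 1 to NAC 4, and 49.5% to 50.5% in saline. With offsets for GC content and length in the fit, the median log2 fold of the members was -0.05, against -0.06 for all genes tested. In that fit Ctsl, a member of low GC content (44.3%), had a log2 fold of -2.18 and passed (edgeR adjusted p = 0.0458, where 0.147% of all genes tested were called), Naglu had -1.53, Sqstm1 -0.63 and Map1lc3b -0.61, and these 3 did not pass. Map1lc3a (-0.04), Psap (-0.006) and Lamp2 (0.11) came near 0, from -0.73, -0.52 and 0.87 in the reported fit. Becn1 (-0.70) and Mcoln1 (0.80) moved away from 0. The median of the glycosidases and their activator went from -0.47 to -0.14.

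**Figure D4:**
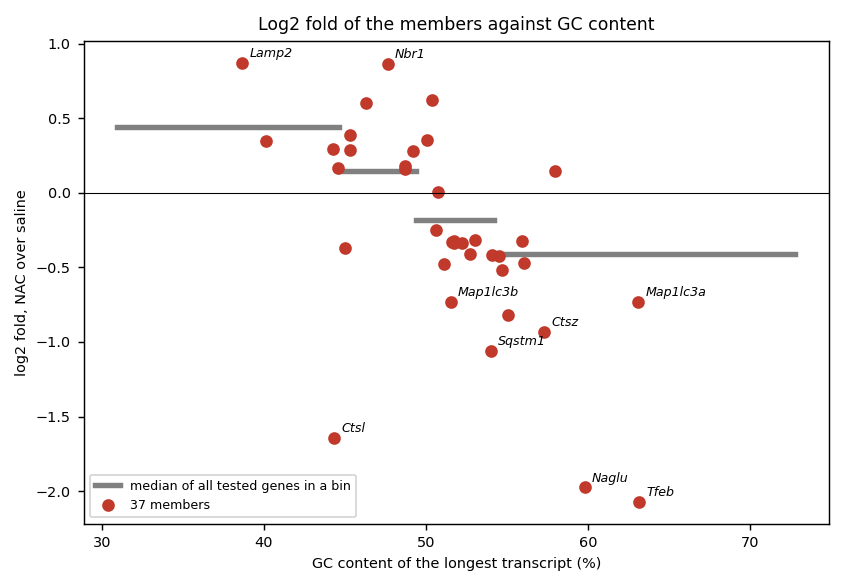
Log2 fold of NAC over saline for the 37 members (red points) against the GC content of the longest transcript, with grey bars at the median of all tested genes in each bin by GC content. The members of the 2 lower bins lie mostly above 0 and those of the 2 higher bins mostly below, while Ctsl, at 44.3% GC and a log2 fold of -1.64, lies below the grey bar of its bin.

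Further genes of the pathway were described from 6 lists, of which 126 of 136 genes passed the filter on low counts. Over all of these, edgeR called 0 at an adjusted p under 0.05, the groups did not overlap for 5 (3.97%, against 5.38% of all genes tested), and 16 (12.7%) had an unadjusted p under 0.05, 9 lower and 7 higher in NAC, again near the 16.2% of all genes tested. Other lysosomal hydrolases, 30 genes tested, had a median log2 fold of -0.35 with 19 negative. Fuca1, the tissue fucosidase, had 60.2 ± 33.2 CPM in NAC (SD, n = 4) and 142 ± 58.0 CPM in saline (SD, n = 6; log2 fold -1.28). The 21 tested genes of other lysosomal membrane and sorting proteins had a median of -0.13. Slc38a9, the arginine sensor that signals to MTORC1, had 47.3 ± 16.1 CPM in NAC and 15.4 ± 9.81 CPM in saline (log2 fold 1.57 with SE 0.50 and edgeR adjusted p = 0.152). Its groups did not overlap but nearly touched, at 32.5 CPM in NAC 1 and 32.2 CPM in saline 4. Scarb2, the receptor that sorts glucocerebrosidase, had a log2 fold of -0.997 (-1.99 without NAC 2).

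The proton pump and the machinery lists were centred near 0. The 16 V-ATPase genes had a median of -0.05; Atp6v0b, a membrane subunit, had a log2 fold of -0.87 and Atp6v1h, a regulatory subunit, of 0.88. The 33 tested genes of other autophagy machinery had a median of 0.03. Atg101, which stabilises the ULK1 complex, had 54.5 ± 10.8 CPM in NAC (SD, n = 4) and 126 ± 17.7 CPM in saline (SD, n = 6), without overlap (log2 fold -1.20 with SE 0.27 and edgeR adjusted p = 0.0748). Rubcn, an inhibitor of autophagosome maturation, had 48.9 ± 10.96 CPM in NAC and 23.0 ± 7.24 CPM in saline, also without overlap (log2 fold 1.04, edgeR adjusted p = 0.198). The 22 tested genes of MTORC1 and AMPK control had a median of 0.07. Lamtor1, the anchor of the Ragulator complex on the lysosome, had 35.6 ± 13.9 CPM in NAC and 92.7 ± 22.4 CPM in saline, without overlap (log2 fold -1.31, edgeR adjusted p = 0.0970), and Rptor, the MTORC1 scaffold, a log2 fold of 0.67. Of the cathepsin inhibitors, 4 of 6 were tested, with a median of 0.09; the values of Serpinb6a and Serpinb9, intracellular serpins, were 0.22 and 1.35, and that of Serpinb9 was -2.89 without NAC 2.

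**Figure D5:**
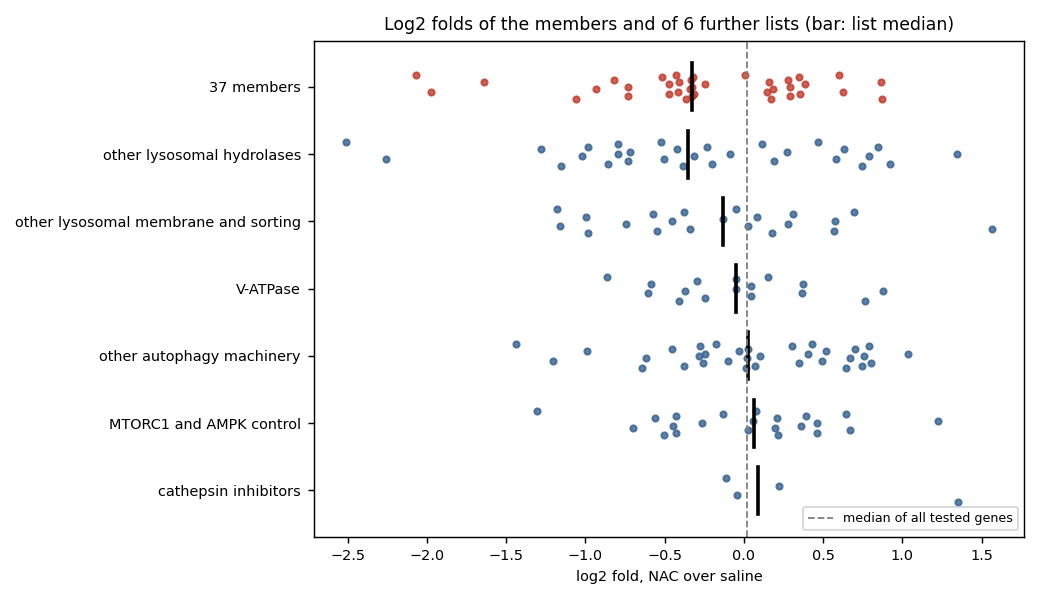
Log2 folds of NAC over saline for the 37 members (red) and the tested genes of 6 further lists (blue), with a black bar at each list's median and a dashed line at the median of all tested genes, 0.02. The medians run from -0.35 for the other lysosomal hydrolases to 0.09 for the cathepsin inhibitors, and single genes spread on both sides in every list.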

How the data were processed

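Per the submitters' processing notes, the authors used Salmon (version not given in the sources used here) with build GRCm38, and deposited for each library a table of genes with estimated counts and TPM. Strand setting, trimming and annotation are likewise not given. Rows without a symbol (1548, holding 0.496% to 0.638% of reads) were left out. The deposited estimated counts, rounded to integers, entered edgeR 4.0.16 in R 4.3.3: TMM factors, the default filter on low counts, the robust quasi-likelihood test and Benjamini-Hochberg adjustment over 10945 genes, called at an adjusted p under 0.05. CPM use the TMM library sizes. TPM values are the authors' deposited ones. Salmon shares ambiguous reads among similar transcripts, which can move levels between overlapping genes.

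The members and lists were chosen with earlier results of these data known. Every member was named; values by library were printed for the 2 members of each role with the smallest unadjusted p and for Lamp1, Sqstm1, Map1lc3b and Tfeb. In each further list, the gene with the smallest p in each direction was named, except 1 that is not reported here. Alternatives used other scaling, filters, tools (DESeq2 1.42.0, limma 3.58.1), a replicate block, fewer libraries, and GC and length offsets. Positions are from GENCODE and sequences from RefSeq, both GRCm38. The fit was tested on simulated data. All libraries carry batch 1 in the labels. Limits at a count of 0 use 3 reads.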

Additional observations from a re-analysis of the deposited data

Results flagged for a closer look

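A single library stood far from the rest of its group for 8 of 98 gene and group combinations checked, and 4 of the 8 are in NAC 2. For normally distributed values, chance gives about 1 in 20. These CPM are bounded at 0 and come from libraries of unlike depth, so no excess is read from the 8. Ulk1 was low in NAC 3, at 8.055 CPM, against 46.73 to 51.19 CPM in the other NAC libraries. That value is 1 read, in a library where 3 reads make 24.2 CPM. Becn1 was high in NAC 2, at 98.29 CPM, against 72.49 to 74.31 CPM in the other NAC libraries. Atg5 was high in saline 2, at 123.9 CPM, against 49.16 to 67.16 CPM in the other saline libraries. Tfeb had 5.771 CPM in NAC 1 and 0 in the other NAC libraries.

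Among the further genes, Scarb2 was high in NAC 2, at 51.19 CPM, against 6.982 to 14.43 CPM in the other NAC libraries. Atp6v0b had 149.5 CPM in NAC 2 and 76.8 to 80.55 CPM in the other NAC libraries. Serpinb9 had 120.8 CPM in NAC 2 and 0 to 8.055 CPM in the other NAC libraries. Rptor was high in saline 1, at 103.9 CPM, against 40.5 to 63.47 CPM in the other saline libraries.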

How the results depend on the processing

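The members called numbered 0 in the reported fit, 3 with DESeq2 (Ctsl, Naglu and Sqstm1), 2 with limma-voom (Ctsl and Sqstm1), 2 with no filter on low counts (Ctsl and Naglu), 1 with GC and length offsets (Ctsl) and 0 to 1 with 1 library left out. Over all genes tested, 8 were called, against 433 with DESeq2, 447 with limma-voom, 226 with no filter, 16 with the offsets, 2 without NAC 2 and NAC 3, and 1 to 58 with 1 library left out. The median log2 fold of the members was negative in all 21 alternatives, from -0.46 to -0.052 (-0.052 with the offsets), and -0.42 to -0.23 with 1 library left out, but that of all genes tested was also negative in 16 of the 21. The members' median minus that of all genes was -0.34 in the reported fit, -0.33 with library size alone (where all genes had 0.19), -0.16 with log2(TPM + 1), -0.15 with the replicate block, -0.098 with log2(TPM + 0.1) and 0.0092 with the offsets. Same-numbered NAC and saline libraries had deviations from their group means that correlated at -0.0081, 0.010, 0.0093 and 0.196, so the numbers were not taken to pair them; the replicate block over 8 libraries called 1 gene and 0 members. Of 49 genes examined singly, 18 turned sign in some alternative, 16 of them members, none of which had passed. With limma on log2(TPM + 1), the sign turned for Ctsb (-0.084), Tpp1 (-0.037), Ulk1 (-0.089), Atg12 (-0.069) and Serpinb9 (-0.31). With limma on log2(TPM + 0.1), the sign turned for Ctsb (-0.087), Tpp1 (-0.038), Ulk1 (-0.19), Atg12 (-0.091), Atg16l1 (-0.00067) and Serpinb9 (-1.19). With NAC 2 and NAC 3 left out, the sign turned for Ctsb (-0.19), Gla (-0.92), Lamp2 (-0.22), Laptm4a (-0.56), Gabarap (-0.79), Atg5 (-0.37), Atg7 (0.23), Serpinb9 (-3.43) and Serpinb6a (-0.15). With GC and length offsets, the sign turned for Ctsd (0.48), Atg3 (-0.16), Atg5 (-0.12), Atg12 (-0.17) and Serpinb6a (-0.27). With limma-voom with quality weights, the sign turned for Gla (-0.57), Laptm4a (-0.088), Gabarap (-0.50), Atg5 (-0.048), Atg12 (-0.040), Optn (0.11) and Serpinb9 (-2.50). With no filter on low counts, the sign turned for Gabarap (-0.038). With the replicate block, the sign turned for Gabarap (-0.20), Atg12 (-0.013), Atg16l1 (-0.048) and Serpinb9 (-0.95). With 1 library left out, the sign turned for 13 genes, whose log2 folds ran over -0.0088 to 0.47 (Ctsh), -0.35 to 0.84 (Gla), -0.054 to 1.103 (Lamp2), -0.0069 to 0.85 (Mcoln1), -0.10 to 0.33 (Laptm4a), -0.55 to 0.20 (Gabarap), -0.0091 to 0.30 (Ulk1), -0.10 to 0.57 (Atg3), -0.23 to 0.36 (Atg5), -1.43 to 0.081 (Atg7), -0.18 to 0.48 (Atg12), -0.14 to 0.66 (Atg16l1) and -2.90 to 1.71 (Serpinb9). Sqstm1 and Map1lc3b kept their sign in every alternative, but their log2 folds came as near 0 as -0.55 and -0.16. Depth limits Tfeb, Gla and Atg7, and NAC 3, where 3 reads make 24.2 CPM. The causes were not tested.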
